A study of Oryza sativa with 3 samples.

Results

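The isolated regions of an anti-Flag ChIP-seq experiment in rice are described here, meaning regions of enrichment with no other region within 20 kb. ChIP-seq (chromatin immunoprecipitation followed by sequencing) maps where a protein sits on DNA. The protein was a Flag-tagged ngr2 expressed from the 35S promoter in WYJ7-dep1-1 rice, and the chromatin came from seedlings aged 2 weeks. All 3 samples shared this genotype, tissue and antibody and formed 1 group, so there was no contrast between conditions, and neither an input nor an untagged control was analysed here. The regions of the 3 deposited lists were pooled, those that overlapped by at least 1 bp were merged, and merged regions were chained over gaps of up to 20 kb. Of 853 merged regions, 363 (42.6%) were alone in their chain and are called isolated. The other 490, called clustered, lay in 69 chains of 2 to 9 regions and 10 chains of 10 or more. The membership was thus set by the positions of the regions in these lists, and what follows describes the members without a test against the rest.

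As background, ngr2 is an allele of GRF4, a member of the plant-specific growth-regulating factor (GRF) family of transcription factors. GRFs bind DNA, recruit GIF coactivators and promote cell proliferation, and most are held down by the microRNA miR396, a control that the ngr2 allele escapes in part. GRF4 is known in rice for promoting nitrogen uptake and assimilation and carbon fixation, against the growth-repressing DELLA proteins. WYJ7 is a japonica variety, and dep1-1 is a gain-of-function allele of DEP1, which encodes a G-protein gamma subunit. The 35S promoter is active in most plant tissues, so the tagged protein may be present in cells in which GRF4 is not normally made. The labels do not give the number of transgenic lines or state whether separate plants were used for each sample, so the spread between samples may be technical.

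Isolated regions supplied about the same part of each list. They contained 150 of the 440 peaks of replicate 1 (34.1%, exact 95% interval 29.7 to 38.7%), 182 of the 620 of replicate 2 (29.4%, 25.8 to 33.1%) and 140 of the 439 of replicate 3 (31.9%, 27.6 to 36.5%). This was 31.8 ± 2.37% of a list (SD, n = 3). In bases the part was smaller, 18.8 ± 2.39% of the length a list covered (SD, n = 3). The read depth behind the lists is unknown, so a region missing from a list cannot be called unbound in that sample, and the intervals cover counting error only. The lists name no genome build and no annotation of a known matching build was used, so positions are given 1-based in the coordinates of the lists and no genes or sequences are assigned to them.

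Most isolated regions were found in 1 sample only. A single list held 290 of the 363 (79.9%, 75.4 to 83.9%), against 173 of the 490 clustered regions (35.3%, 31.1 to 39.7%). All 3 samples held 27 isolated regions (7.44%, 4.96 to 10.6%), against 172 clustered ones (35.1%, 30.9 to 39.5%). The clustered regions were not alike: all 3 samples held 51 of 228 in chains of 2 to 9 (22.4%) and 121 of 262 in chains of 10 or more (46.2%). A single list held 92 (40.4%) and 81 (30.9%) of these. Replicates 1 and 2 alone held 32 isolated regions and replicates 2 and 3 alone held 14, while none was held by replicates 1 and 3 alone. No clustered region was held by replicates 1 and 3 alone either, so this absence is a property of the lists as a whole. The single-sample regions were spread over the lists, with 87 in replicate 1, 104 in replicate 2 and 99 in replicate 3. Seen from the other side, isolated regions made up 290 of the 463 regions that a single sample held (62.6%), and 73 of the 390 held by at least 2 (18.7%). Among the regions that replicate 1 alone held the isolated part was 87 of 105 (82.9%), against 104 of 202 (51.5%) in replicate 2 and 99 of 156 (63.5%) in replicate 3. The title of replicate 3 does not name the Flag tag, unlike those of the others. With its list left out, 269 regions were isolated, of which 21.9% were held by both remaining samples. With replicate 1 left out instead, 276 were isolated and 15.6% were held by both. With replicate 2 left out, 272 were isolated and 11.0% were held by both. Replicate 2 also held all of the latter, as no region was held by replicates 1 and 3 alone.

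The scores placed isolated regions in the lower part of each list. The score is the authors' peak caller's value for a region. The files give it no unit, and it is used here only to rank peaks within a list. The median score of isolated peaks was 58.1 in replicate 1, 61.2 in replicate 2 and 56.9 in replicate 3, against 115, 118 and 108 for clustered peaks of the same lists. Every list starts just above 50, so the isolated medians lay close to its lower end. Scores under 60 were found for 54.0, 46.7 and 57.9% of isolated peaks in replicates 1, 2 and 3, against 13.4, 14.2 and 15.7% of clustered peaks. Expressed as a percentile within the list (ties at mid-rank), isolated peaks averaged 31.5 ± 1.34 and clustered peaks 58.6 ± 1.011 (SD over lists, n = 3).

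The isolated regions were not uniformly weak. The highest score in any list was 3100, and of the 16 peaks with that score 9 lay in isolated regions, 2 of 3 in replicate 1, 6 of 10 in replicate 2 and 1 of 3 in replicate 3. These 9 peaks belonged to 6 regions. All 3 lists end at this same score with several tied peaks, so it may be an upper limit. Peaks with a score of 3100 cannot be ranked against one another. Each list was divided by score into 5 classes of equal size, from class 1 (lowest) to class 5 (highest). Isolated peaks made up 65.8 ± 3.61% of class 1, 43.3 ± 6.15% of class 2 and 28.8 ± 6.63% of class 3 (SD, n = 3). They made up 9.78 ± 1.38% of class 4 and 11.2 ± 2.94% of class 5, a difference smaller than the SD of class 5 but not than that of class 4.

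**Figure D1:**
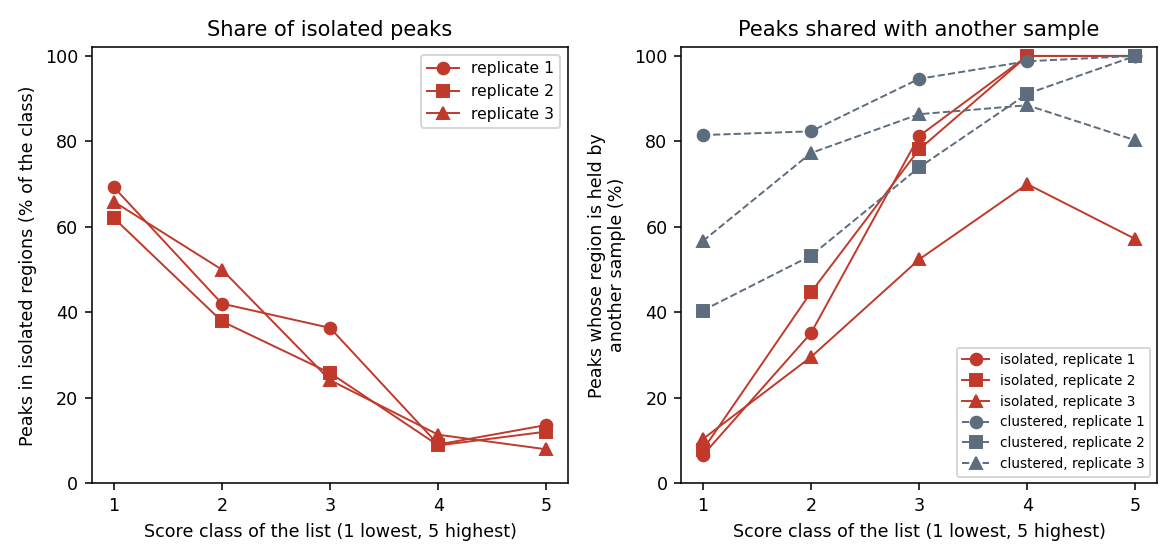
Left, the percentage of peaks that lay in isolated regions, for each of the 5 score classes of a list; right, the percentage of isolated (red) and clustered (grey, dashed) peaks whose region another sample held, with 1 line per replicate. Isolated peaks made up 65.8% of class 1 and 11.2% of class 5 on average, and in replicates 1 and 2 all isolated peaks of classes 4 and 5 were shared.

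Sharing of isolated regions varied with the score. In score class 1, 16 of 196 isolated peaks (8.16%) lay in a region that another sample held, against 58 of 104 clustered peaks (55.8%). In class 2 it was 47 of 128 isolated peaks (36.7%) against 117 of 172 clustered peaks (68.0%), and in class 3 it was 62 of 85 (72.9%) against 178 of 214 (83.2%). In class 4, 26 of 29 isolated peaks (89.7%) and 251 of 271 clustered peaks (92.6%) were shared, and in class 5, 31 of 34 (91.2%) and 250 of 266 (94.0%). Replicate 3 stood apart there, with 7 of 10 isolated peaks shared in class 4 (70.0%) against 69 of 78 clustered ones (88.5%), and 4 of 7 in class 5 (57.1%) against 65 of 81 (80.2%). Averaged over lists, 85.7 ± 24.7% of isolated and 93.4 ± 11.4% of clustered peaks of class 5 were shared (SD, n = 3). These pooled counts add lists that share regions, so a shared region is counted more than once.

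The 3 lists were not alike in this respect. All 29 isolated regions of replicate 1 that scored above the list's median were held by another sample. In replicate 2 this was so of 33 of 35 regions, and in replicate 3 of 16 of 23 (69.6%). Below the median, 30 of 117 regions were shared in replicate 1 (25.6%), 40 of 142 in replicate 2 (28.2%) and 25 of 117 in replicate 3 (21.4%). Replicate 3 was therefore the list with the most high-scoring isolated regions that the others did not hold, 7 above its median. The same was seen in clustered regions. Of those that a single sample held, 29 of 57 lay above the median in replicate 3, 1 of 18 in replicate 1 and 20 of 98 in replicate 2.

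Because the pooled lists chose the members, the sharing was also read from a list that took no part in the choice. Isolation was set by 2 lists, and the third was asked whether it held the region. Replicate 1 held 58 of 276 regions that were isolated in replicates 2 and 3 (21.0%, 16.4 to 26.3%), against 279 of 489 clustered ones (57.1%, 52.5 to 61.5%). Replicate 2 held 79 of 272 isolated regions of the others (29.0%, 23.7 to 34.8%), against 319 of 387 clustered ones (82.4%, 78.3 to 86.1%). Replicate 3 held 42 of 269 (15.6%, 11.5 to 20.5%), against 232 of 433 (53.6%, 48.8 to 58.4%). The intervals of isolated and clustered regions did not overlap for any list left out, although they treat neighbouring regions as independent. On average the list left out held 21.9 ± 6.76% of isolated and 64.4 ± 15.7% of clustered regions (SD, n = 3 lists).

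The third list rarely had a peak near an isolated region without overlap. A peak within 20 kb that did not overlap was found for 1 of 276, 7 of 272 and 4 of 269 isolated regions when replicates 1, 2 and 3 were left out. For clustered regions it was 120 of 489, 36 of 387 and 110 of 433. A clustered region has another region within 20 kb by definition, so much of this difference is built in by the rule. Isolated regions held by both of the other lists were found again in 29 of 43 cases in replicate 1, 30 of 30 in replicate 2 and 27 of 59 in replicate 3. For clustered regions this was 175 of 231, 172 of 172 and 177 of 266. The complete recovery in replicate 2 follows from the absence of any region held by replicates 1 and 3 alone, and says nothing particular about isolated regions. Isolated regions held by 1 of the other lists were found again in 29 of 233, 49 of 242 and 15 of 210 cases. This is 13.3 ± 6.59%, against 47.2 ± 18.7% of clustered regions (SD, n = 3 lists).

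The same shares were also read within bands of the score percentile. The bands do not match regions on how many of the other 2 lists held them. With replicate 1 left out, only 1 of those lists held 233 of 276 isolated regions, against 258 of 489 clustered ones. Isolated regions with a mean percentile under 25 in the other 2 lists were held by the list left out in 5.04 ± 1.81% of cases, against 37.7 ± 26.8% of clustered regions (SD, n = 3 lists). Between percentiles 25 and 50 the shares were 30.8 ± 10.4% and 49.9 ± 24.4%, and at percentile 50 and over 68.1 ± 11.98% and 78.0 ± 8.17%. In the last 2 bands the difference of the means was below the larger SD between lists. For each list left out, the isolated share was the lower of the 2 in every band. The intervals of isolated and clustered regions overlapped for replicates 1 and 3 between percentiles 25 and 50, and for all 3 lists at percentile 50 and over. Between these bands the smaller difference of the means came from replicate 2, which held 40.7% of isolated and 77.3% of clustered regions in the first of them and 81.8% and 87.4% in the second. For replicate 1 the shares were 31.7% and 41.9% in the first and 63.2% and 73.7% in the second, and for replicate 3 they were 20.0% and 30.6%, then 59.5% and 73.0%.

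**Figure D2:**
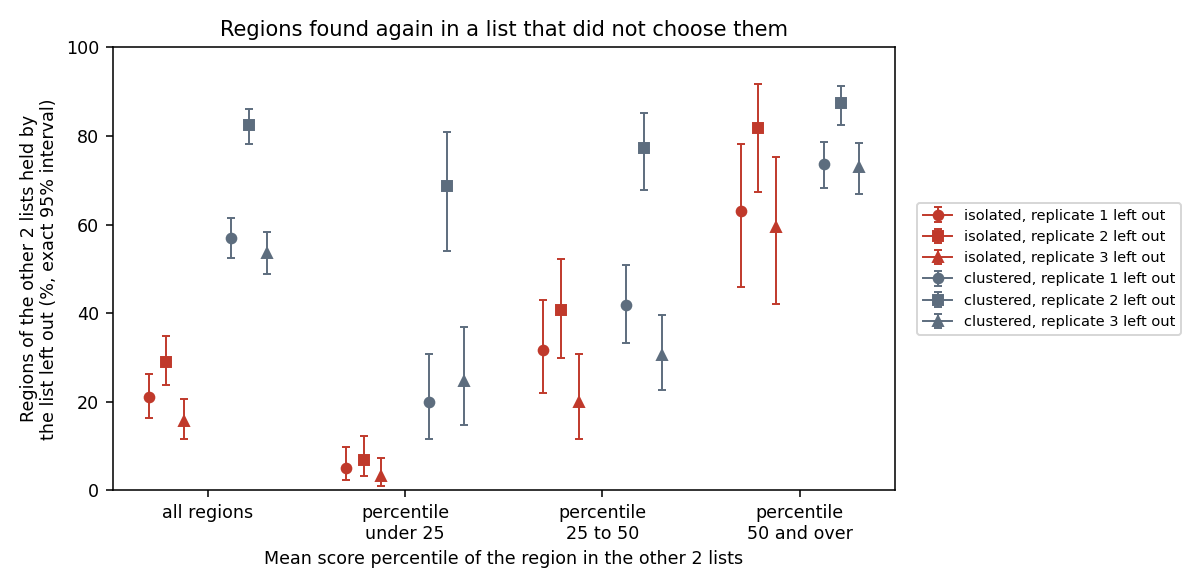
The percentage of regions of 2 lists that the list left out held, with exact 95% intervals, for all regions and for bands of the mean score percentile; isolated regions are red and stand left of the clustered ones in grey. Under percentile 25 the isolated points lie between 3.18 and 6.80%, and at percentile 50 and over between 59.5 and 81.8%.

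Isolated regions were shorter than clustered ones in these lists. Their merged length had a median of 161 bp (quartiles 139 and 223 bp, range 55 to 2315 bp), against 283.5 bp for clustered regions. Isolation was also set anew from the peaks above the median score of their list alone. The medians were then 352 bp for the 71 isolated and 437 bp for the 287 clustered regions. The clustered value was added after seeing the data. These 71 are not a subset of the isolated regions of the full lists, as dropping peaks left some formerly clustered regions alone. In single lists the median peak length was 175.7 ± 13.04 bp for isolated and 347.8 ± 64.8 bp for clustered peaks (SD, n = 3). Chains of 2 to 9 were closer to the isolated peaks, at 242.8 ± 62.1 bp, than chains of 10 or more, at 416.3 ± 57.6 bp (SD, n = 3). In replicate 3 the medians were 166 bp for isolated peaks and 199.5 bp for chains of 2 to 9. Length went with sharing. The 290 regions of a single sample had a median of 152 bp and 238 of them (82.1%) were under 200 bp, while the 73 held by at least 2 samples had a median of 369 bp and 11 (15.1%) were under 200 bp. A merged region of several lists is the union of their peaks, which by itself lengthens it. Isolated regions over 1000 bp numbered 8, all held by at least 2 samples, as were all 51 clustered regions over 1000 bp.

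The pattern of samples also went with length. Regions in all 3 samples had a median of 406 bp and those of replicates 1 and 2 a median of 390.5 bp, whereas the 14 of replicates 2 and 3 had a median of 153 bp. Clustered regions had the same order, with medians of 656, 308 and 145.5 bp for these patterns. The mean percentiles of the isolated regions were nevertheless alike, with medians of 46.4, 46.8 and 48.8. Of the 14 regions of replicates 2 and 3, 6 were under 100 bp, which is below the shortest fragment selected for the libraries according to the labels. The other isolated regions under 100 bp were held by 1 sample, 1 in replicate 1, 4 in replicate 2 and 7 in replicate 3. In all, 18 of the 363 isolated and 31 of the 490 clustered regions were this short. Among the 56 clustered regions of replicates 2 and 3 alone it was 13. Across the 363 isolated regions the Spearman correlation of length with mean percentile was 0.42, and it was 0.37 in the 73 shared and 0.22 in the 290 single-sample regions. These are descriptions across regions of the same lists.

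**Figure D3:**
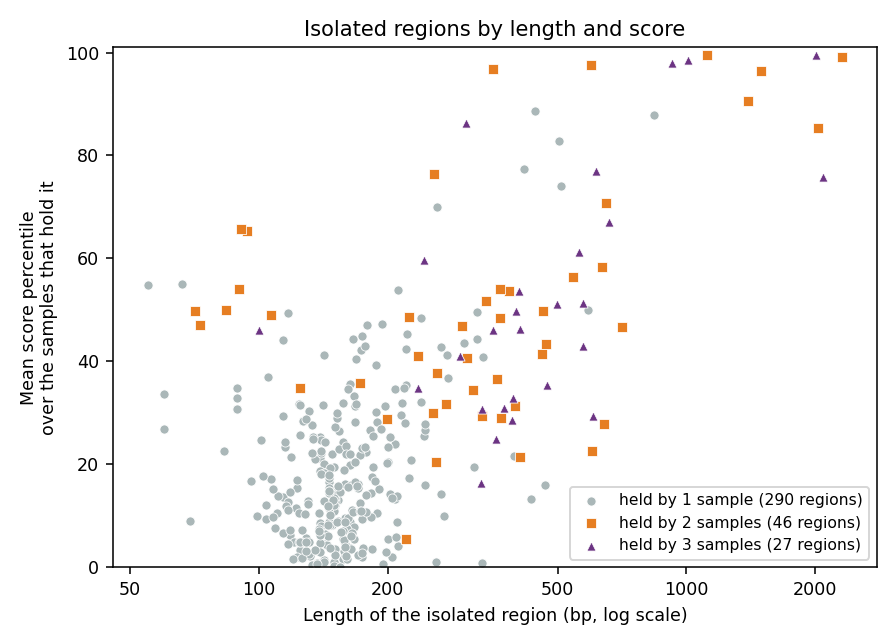
Each point is 1 isolated region, placed by its length (bp, log scale) and its mean score percentile over the samples that held it, and marked by the number of samples. The 290 regions of 1 sample gather at a median of 152 bp and percentile 15.2, and the 73 shared ones at a median of 369 bp and percentile 47.0.

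The highest-scoring isolated region held by all 3 samples lay on chromosome 3 (28512781 to 28514793, 2013 bp), with a score of 3100 in each. Its nearest neighbour was 188 kb away. The second, on chromosome 3 (32645970 to 32646978, 1009 bp), had scores of 1184, 3100 and 2000 in replicates 1, 2 and 3. The third, on chromosome 11 (12351983 to 12352909, 927 bp), scored 2498, 3100 and 842 in replicates 1, 2 and 3, and its nearest neighbour was 47.4 kb away. All 3 of these stood above percentile 95 of every list.

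The next regions of this kind ranked lower and less evenly. A region of chromosome 4 (20688205 to 20688509, 305 bp) scored 172, 918 and 408 in replicates 1, 2 and 3, which is percentile 74.7, 94.9 and 89.4. One of chromosome 1 (7917330 to 7917943, 614 bp) stood at percentiles 78.5, 80.2 and 72.1. The 2090 bp region of chromosome 7 (27738131 to 27740220) scored 859 and 822 in replicates 1 and 2 (percentiles 95.8 and 93.8) but 67.4 in replicate 3 (percentile 38.2). Replicate 3 was thus low at a region that both other samples ranked near the top.

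The remaining 14 of the 20 highest-ranked regions held by all 3 samples had mean percentiles from 34.8 to 67.1. Among them were chromosome 4 (12545763 to 12546422; percentiles 54.7, 70.7 and 76.0), chromosome 12 (21599920 to 21600479; 61.7, 71.5 and 50.7) and chromosome 5 (6725576 to 6725818; 68.8, 52.7 and 57.7). Of the 20, the chromosome 5 region had the most distant nearest neighbour, 1214 kb away. On chromosome 1, a region of 100 bp from 38271119 to 38271218 stood at percentile 6.48 of replicate 1, 66.9 of replicate 2 and 64.8 of replicate 3. On chromosome 7, a region of 235 bp from 2525822 to 2526056 stood at percentiles 38.5, 4.11 and 61.8. The samples disagreed on both by more than 50 percentile points between the highest and the lowest. The 20 regions lay on 11 of the 12 chromosomes, and chromosome 10 held none of the 27 regions found in all 3 samples.

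Several strong isolated regions were listed for replicates 1 and 2 but not for replicate 3. A region of chromosome 2 (33442729 to 33443844, 1116 bp) scored 3100 in both, and one of chromosome 5 (860177 to 862491) reached 2831 and 3100 in replicates 1 and 2. The chromosome 5 region, at 2315 bp, was the longest isolated region. Others were on chromosome 3 (22844958 to 22845554; scores 1211 and 1822), chromosome 1 (38382380 to 38382731; 1051 and 1672) and chromosome 4 (33630723 to 33632215; 588 and 3100). All 5 stood above percentile 93 of both lists. The third-longest isolated region, on chromosome 9 (15279384 to 15281414, 2031 bp), was split into 4 peaks in each of replicates 1 and 2 and was not listed for replicate 3. Such splitting was found in 2 of 146 isolated regions of replicate 1, 3 of 177 of replicate 2 and 0 of 140 of replicate 3, against 10 of 279, 19 of 415 and 11 of 285 clustered regions, and was rare in both kinds.

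The leading regions of replicates 2 and 3 were weaker and mostly very short. The first, on chromosome 11 (16927330 to 16927586, 257 bp), had scores of 313 and 130 in replicates 2 and 3. The next were regions of 91 bp on chromosome 6 (28182681 to 28182771; scores 123 and 128) and of 94 bp on chromosome 10 (10837741 to 10837834; 122 and 126). Regions of 90 bp on chromosome 3 (25247716 to 25247805) and of 84 bp on chromosome 6 (15436291 to 15436374) followed. These 4 short regions stood between percentiles 43.1 and 62.5 of replicate 2 and between percentiles 55.9 and 68.9 of replicate 3.

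Among isolated regions of a single sample, those of replicate 3 reached furthest up the list. Clustered regions of a single sample did so too, reaching percentile 62.8 in replicate 1, 79.0 in replicate 2 and 97.2 in replicate 3. The highest isolated ones of replicate 3 were on chromosome 3 (34028689 to 34029130; 442 bp, score 358, percentile 88.7), chromosome 4 (34945567 to 34946405; 839 bp, 339, percentile 87.8) and chromosome 2 (32517026 to 32517529; 504 bp, 238, percentile 82.8). The regions of chromosomes 3 and 4 were also the last merged regions of their chromosomes. The highest of replicate 1 lay on chromosome 10 (427175 to 427498, 324 bp) at percentile 49.7. The highest of replicate 2 lay on chromosome 5 (12984158 to 12984223, 66 bp) at percentile 55.1 and on chromosome 7 (28249395 to 28249449) at percentile 54.9. The chromosome 7 region, at 55 bp, was the shortest of the 363. Most single-sample regions lay just above the lower limit of the lists, with median scores of 54.1, 54.3 and 55.0 in replicates 1, 2 and 3. Scores under 60 were found for 73 of 87, 76 of 104 and 71 of 99 of them.

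Samples that shared an isolated region ranked it similarly in part. Their scores had a Spearman correlation of 0.65 for the 59 regions of replicates 1 and 2, 0.57 for the 27 of replicates 1 and 3 and 0.69 for the 41 of replicates 2 and 3. For clustered regions it was 0.80, 0.67 and 0.84 over 261, 172 and 228 regions. The percentiles of the same isolated region differed by a median of 9.83 points between replicates 1 and 2, 12.9 between replicates 1 and 3 and 8.45 between replicates 2 and 3. Replicate 1 gave the higher percentile in 20 of the 27 regions it shared with replicate 3. Between replicates 1 and 2 the higher value was about evenly divided, with 27 regions higher in replicate 1 and 32 in replicate 2.

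The boundaries of shared peaks coincided less often at isolated than at clustered regions. Every overlapping pair of peaks was counted, so a region split into several peaks gave more than 1 pair. For replicates 1 and 2, 59 isolated regions gave 68 pairs and 261 clustered regions gave 290. Starts lay within 1 bp of each other in 8 of 68 isolated pairs of replicates 1 and 2 (11.8%), against 141 of 290 clustered pairs (48.6%). For replicates 1 and 3 this was 4 of 27 (14.8%) against 107 of 193 (55.4%), and for replicates 2 and 3 it was 10 of 41 (24.4%) against 137 of 253 (54.2%). The median distance between starts was 31.5, 17.0 and 17.0 bp at isolated regions in these 3 pairs of samples, against 2, 1 and 1 bp at clustered ones. The median overlap was 81.3, 82.1 and 86.3% of the combined length at isolated regions, against 97.1, 98.7 and 98.7%. The isolated regions were not alike in this. Of the 14 regions of replicates 2 and 3, 8 had starts within 1 bp and 6 had both boundaries within 1 bp, and their median overlap was 95.8%. Of the 27 regions in all 3 samples, 2 had starts within 1 bp in replicates 2 and 3, and their median overlap was 84.2%. The regions of replicates 2 and 3 thus had a median start distance of 1 bp, the same as clustered pairs of these samples.

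Isolated regions lay at similar density on all 12 chromosomes, with the last region end on a chromosome standing for its length. Their density ran from 0.818 per Mb on chromosome 2 to 1.23 per Mb on chromosome 10, with a median of 1.03 per Mb. Clustered regions ran from 0.289 per Mb on chromosome 8 to 6.99 per Mb on chromosome 12. Chromosome 12 had 27 isolated of 211 merged regions (12.8%), and chromosome 8 had 27 of 35 (77.1%). The number of isolated regions followed chromosome length (Pearson r = 0.81, Spearman 0.67, over 12 chromosomes), and that of clustered regions did not (Pearson r = 0.07, Spearman 0.0035). The rule takes out regions that lie close together, so some evenness of what remains is built in. Single isolated regions were also listed on the sequences named ChrSy (replicate 2) and ChrUn (replicate 1).

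**Figure D4:**
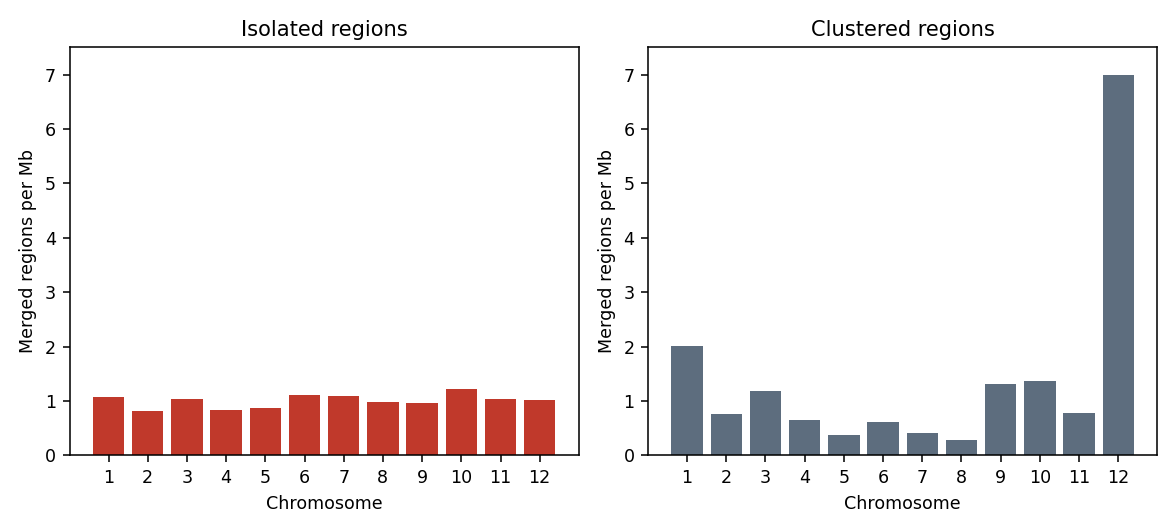
Merged regions per Mb on each of the 12 chromosomes, isolated regions on the left and clustered regions on the right, on the same scale. Isolated regions lie between 0.818 and 1.23 per Mb, while clustered regions reach 6.99 per Mb on chromosome 12.

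The position of isolated regions along the chromosomes was also recorded. Each chromosome was divided into 5 equal stretches from its first base. The 73 isolated regions held by at least 2 samples numbered 8, 8, 17, 18 and 22 from the first stretch to the last. The 288 single-sample regions on the 12 chromosomes numbered 51, 70, 72, 53 and 42, and the 490 clustered regions 56, 54, 129, 163 and 88. Low numbers in the first 2 stretches were thus seen in clustered regions as well as in shared isolated ones, and the difference between the sets was not tested. On chromosome 1, 12 of 46 isolated regions were shared, and on chromosome 10, 2 of 27. Chromosomes 3, 4 and 7 each held 4 of the 27 isolated regions found in all 3 samples. The number per chromosome is too small for a comparison between chromosomes.

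Most isolated regions lay far beyond the 20 kb that defined them. The nearest merged region was a median of 264 kb away (quartiles 115 and 591 kb) for the 361 with a neighbour on their chromosome. It was over 100 kb away for 278 and over 1 Mb away for 37. For 291 of the 361 (80.6%) the nearest region was itself isolated, for 60 (16.6%) it was in a chain of 2 to 9 and for 10 (2.77%) in a chain of 10 or more. These shares were close to the make-up of the 442 chains, of which 82.1, 15.6 and 2.26% were of these 3 kinds. The nearest neighbour lay a median of 209 kb from regions held by at least 2 samples and 274 kb from single-sample regions. At the limit itself, a pair of isolated regions on chromosome 9, from 22733571 to 22734142 and from 22755244 to 22755390, lay 21.1 kb apart. The first was held by all 3 samples at percentiles 56.0, 39.0 and 34.3, and the second by replicate 2 alone at percentile 3.79. The clustered regions nearest the limit were on chromosome 4 (9106951 to 9107010) and on chromosome 7 (17538343 to 17538721), whose nearest neighbours lay 18.6 and 18.2 kb away. No merged region had its nearest neighbour between 18604 and 21101 bp away.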

How the data were processed

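The 3 samples were grouped by their genotype label and numbered in the order of their records. The authors deposited 1 headerless list of regions per sample with 5 columns, and the peak names in the lists name MACS. The score column as deposited by the authors runs from just above 50 to 3100 and has no unit. Not given in the sources used here are the caller's version and settings, the control, the aligner, the genome build and the read depth. A score threshold or a shared control would shape which regions are listed. Per the labels' protocols, chromatin was sonicated to about 500 bp and fragments of 100 to 500 bp were selected.

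Starts were converted to 1-based positions. Regions were merged at an overlap of at least 1 bp and chained over gaps of up to 20 kb. A region's score in a list is that of its highest peak. No test was run, and intervals are exact Clopper-Pearson 95% intervals. The merging and chaining were tested on simulated lists. The regions named are the 20 highest by mean percentile held by all 3 samples, the 5 highest per pair of samples and the 3 highest per single sample, of which some are given as ranges. The 3 longest and those nearest the gap limit were added. The members and lists were chosen with earlier results of these data known. Nearest genes and a list of nitrogen, carbon and GRF genes were planned but not analysed here, because the gene table at hand names another assembly than can be matched to the lists. The software was pandas 2.3.3, SciPy 1.17.1 and NumPy 2.4.6 under Python 3.11.15, with Matplotlib 3.10.9 for figures.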

Additional observations from a re-analysis of the deposited data

How the results depend on the processing

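Of 36 values of the 6 main results under alternative settings, 27 moved by less than 1.5 times (counts), 1 SD between lists or the exact interval, and 9 by more. The settings were gaps of 10 or 50 kb, joining regions up to 500 bp apart, a 50% overlap with the list left out, peaks above each list's median alone, and leaving out each replicate. With peaks above the median alone, 71 regions were isolated, 50.7% were held by at least 2 samples and 12.7% by all 3, their median length was 352 bp and their mean percentile 73.1, and the list left out held 46.4%. Dropping the lower-scoring peaks raises the percentile by construction. It also changes which regions are isolated, so these 71 are not a subset of the main set. Joining regions up to 500 bp apart gave a mean percentile of 34.7, and the cause was not tested. Leaving out 1 replicate gave 269 to 276 isolated regions, of which 11.0 to 21.9% were held by both others (lowest without replicate 2), with median lengths of 162 to 167 bp and mean percentiles of 30.3 to 32.0. Being held by both of 2 lists is a stricter measure than being held by at least 2 of 3. Presence in all 3 samples has no value with 2 lists. No paired analysis was possible because there is 1 group only. With the read depth unknown, absence from a list says little about a sample.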
